A study of Mus musculus with 6 samples.

Results

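The type I interferon pathway was followed in HT22 cells through 32 named genes: 2 interferon genes, 4 receptor chains and receptor kinases, 6 transcription factors, 5 nucleic acid sensors and adaptors, 13 interferon-stimulated genes and 2 genes that limit self nucleic acid. They were drawn up by function to ask whether a gain of reads on Ifna13, seen earlier in these data, went with a change in the other genes of the pathway. Of the 32 genes, 30 had a value among the 21878 gene symbols of the deposited table, and Mx1 and Mx2 were not analysed here. Of the 30, 29 were above 0 in at least 1 library and 28 reached the mean level needed for testing, a mean of 0.1 FPKM (fragments per kilobase and sequencing depth, a level that allows for transcript length and library size). Ifna13 was chosen by its own gain in these libraries, the comparison of Al with control, so its values are given with no test. The values of the other members are a description of genes picked with these results known.

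The samples were 6 libraries of HT22 cells, an immortalized line derived from mouse hippocampal neurons. In 3 of them the cells had received 120 µM aluminum maltolate (Al) for 24 h and in 3 they were controls. The deposited labels name the groups only C and M. M was taken as Al because the study's tables pair the names, and C is the control group of the study, whose methods define a control in medium alone beside a separate maltol control. The libraries were inputs of a MeRIP-seq, made from fragmented RNA before enrichment for m6A, and they come from 1 cell line at 1 dose and 1 time.

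Type I interferons are secreted cytokines that cells make when sensors such as RIG-I (Ddx58), MDA5 (Ifih1) and cGAS detect RNA or DNA in the cytoplasm. The adaptors MAVS and STING (Tmem173) pass the signal to the factors IRF3 and IRF7, which switch on interferon genes. Secreted interferon binds IFNAR1 and IFNAR2, the kinases JAK1 and TYK2 are activated, and a complex that holds STAT2 and IRF9 binds interferon-stimulated response elements in the promoters of stimulated genes.

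Read totals on genes were 38059492 to 44556768 in the control libraries and 21125631 to 26670978 in the Al libraries. The 50 most abundant genes of each library took 18.0% to 19.4% of the summed FPKM in controls and 30.01% to 32.5% with Al. Levels called scaled FPKM below are FPKM divided by a size factor per library, and levels called FPKM alone are as deposited. A gene was called when limma gave an unadjusted P under 0.05 with an absolute log2 fold change over 0.58. Adjusted P values are Benjamini-Hochberg values from limma over all 12889 tested genes. The neuron markers summed to 5.45 to 5.90 FPKM in controls and 2.71 to 4.25 FPKM with Al over 8 genes, with Snap25 at 0 in all 6 libraries, so that the neuronal label had little RNA of these markers behind it. The fibroblast markers summed to 756 to 1238 and 1058 to 1652 FPKM over 3 genes, nearly all of it Col1a1. The other fibroblast markers were lower with Al: Dcn was at 13.4, 11.7 and 3.77 FPKM in controls and 2.28, 1.24 and 2.29 with Al, and Pdgfra at 17.0, 14.9 and 8.498 and at 3.60, 2.66 and 6.21. The 8 microglia or macrophage markers summed to 2.19 to 2.99 FPKM in controls and 2.56 to 3.69 FPKM with Al, with P2ry12 at 0 throughout and Cd68 the most abundant. The astrocyte markers summed to 14.0 to 23.3 FPKM in controls and 1.56 to 2.70 FPKM with Al, most of it Slc1a3, with Aqp4 at 0 throughout, and the part of this in the results below was not tested. The 4 oligodendrocyte markers stayed at or below a sum of 0.781 FPKM and the 3 endothelial markers at or below 0.371 FPKM in any library. In bulk RNA of 1 cell line, fewer cells with a marker and less of its RNA per cell cannot be told apart.

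Ifna13 encodes a secreted interferon alpha. The gene lies at chr4:88643641-88644459 on the minus strand of GRCm38 and is protein-coding, with 1 exon and no intron. It was covered by 0, 1 and 0 reads in the control libraries and by 89, 67 and 41 reads in the Al libraries, which is 0, 0.028 and 0 FPKM against 4.07, 3.74 and 2.37 FPKM. Every Al library was above every control library. In all, 1 of 126038741 counted reads lay on Ifna13 in the controls and 197 of 69654513 with Al. Of the 770 stretches of 50 bases in the 819-base transcript, 15.3% occur identically in transcripts of other interferon alpha genes or of the pseudogene Gm13281, and of the 720 stretches of 100 bases 0 do.

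Interferon beta, the product of Ifnb1, is the interferon most cell types make first. Ifnb1 was covered by 1, 7 and 0 reads in the control libraries and by 0 reads in each Al library. Of the 8 control reads, 7 came from control replicate 2. The exact 95% interval of the Al to control ratio per counted read reached up to 1.06 and covers counting error only, so a difference was not detectable at this depth, and Ifnb1 was below the level needed for the fit.

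The other interferon alpha genes of the chromosome 4 cluster had few or no reads. Of the other 13 interferon alpha genes in the table, 9 were at 0 in all 6 libraries, and the remaining 4 together had 8 reads in the controls and 31 in the Al libraries. Ifna16 had 8 reads in Al replicate 2 and 0 elsewhere, and Ifnab had 14 in Al replicate 3 and 0 elsewhere. Ifna11 had 0, 3 and 4 reads in the controls and 0, 8 and 0 with Al, and Ifna7 had 1 read in control replicate 1 and 1 in Al replicate 1. None of the 4 was above 0 in all 3 Al libraries. The related genes Ifnz and Ifne had at most 17 and 10 reads in any library, with overlapping groups.

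**Figure D1:**
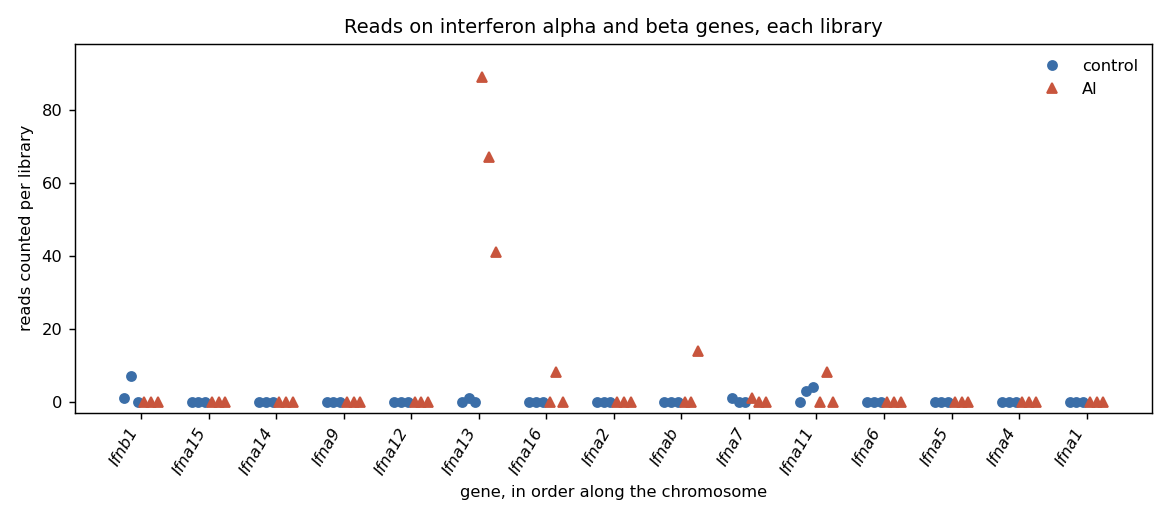
Reads counted on Ifnb1 and the 14 interferon alpha genes of the table in each library (vertical axis, reads), with genes in chromosomal order; circles are the 3 control and triangles the 3 Al libraries. Ifna13 reaches 89, 67 and 41 reads with Al and at most 1 in controls, while no other alpha gene exceeds 14 reads.

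The protein-coding genes at the edges of this cluster did not move as 1 block. Klhl9, an adaptor of a ubiquitin ligase within the cluster, was at 66.2, 68.7 and 64.2 FPKM in controls and 159, 155 and 132 FPKM with Al. Mtap, an enzyme of methionine salvage beyond the other end, was at 219, 206 and 163 FPKM in controls and 107, 94.3 and 83.0 FPKM with Al. Focad was at 5.01 to 6.25 FPKM in controls and 2.22 to 2.94 FPKM with Al, and Hacd4 at 0.751 to 1.20 and 0.291 to 0.349 FPKM. Mllt3, a chromatin reader, was at 20.6 to 22.6 FPKM in controls and 14.4 to 19.5 FPKM with Al, and its scaled levels overlapped. C87499, Cdkn2a, Cdkn2b and Dmrta1 were at 0 in all 6 libraries.

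Most members of the pathway other than Ifna13 did not follow its gain. Of the 27 tested members besides Ifna13, 4 rose with Al (Irf7, Ifit1, Oasl1 and Rsad2), 9 fell (Tyk2, Irf3, Mavs, Ifit3, Ifi35, Oasl2, Oas1a, Usp18 and Bst2) and 14 were not called. That is 14.8% higher and 33.3% lower, beside 26.2% of all tested genes called higher and 24.4% called lower. The share of these members called in either direction, 48.1%, was near the 50.6% of all tested genes. Their median log2 fold change was -0.48, beside 0.03 over all tested genes, and it was -0.17 without Al replicate 1 and -0.31 without Al replicate 2.

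The size of this imbalance depends on how the libraries are scaled, since the size factors set the median gene near no change. On FPKM as deposited, the median of all genes shifted by -0.46 on the log2 scale, and these 27 members split into 3 higher and 15 lower, beside 14.0% of all tested genes higher and 42.0% lower. After dividing by the summed FPKM of the library, which gives TPM, the shift was -0.75 and the split 1 higher and 19 lower, beside 9.31% and 53.1% of all tested genes. Quantile normalization gave 5 higher and 9 lower, beside 22.2% and 24.2%. Changes below are relative to the median gene under the size factors. Members not called there but called lower on FPKM as deposited were Ifnar1, Irf1, Ddx58, Dhx58, Tmem173 and Trex1, to which TPM added Ifnar2, Jak1, Isg15 and Adar. Irf9 was called higher after quantile normalization (0.80) and without Al replicate 2 (0.69).

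**Figure D2:**
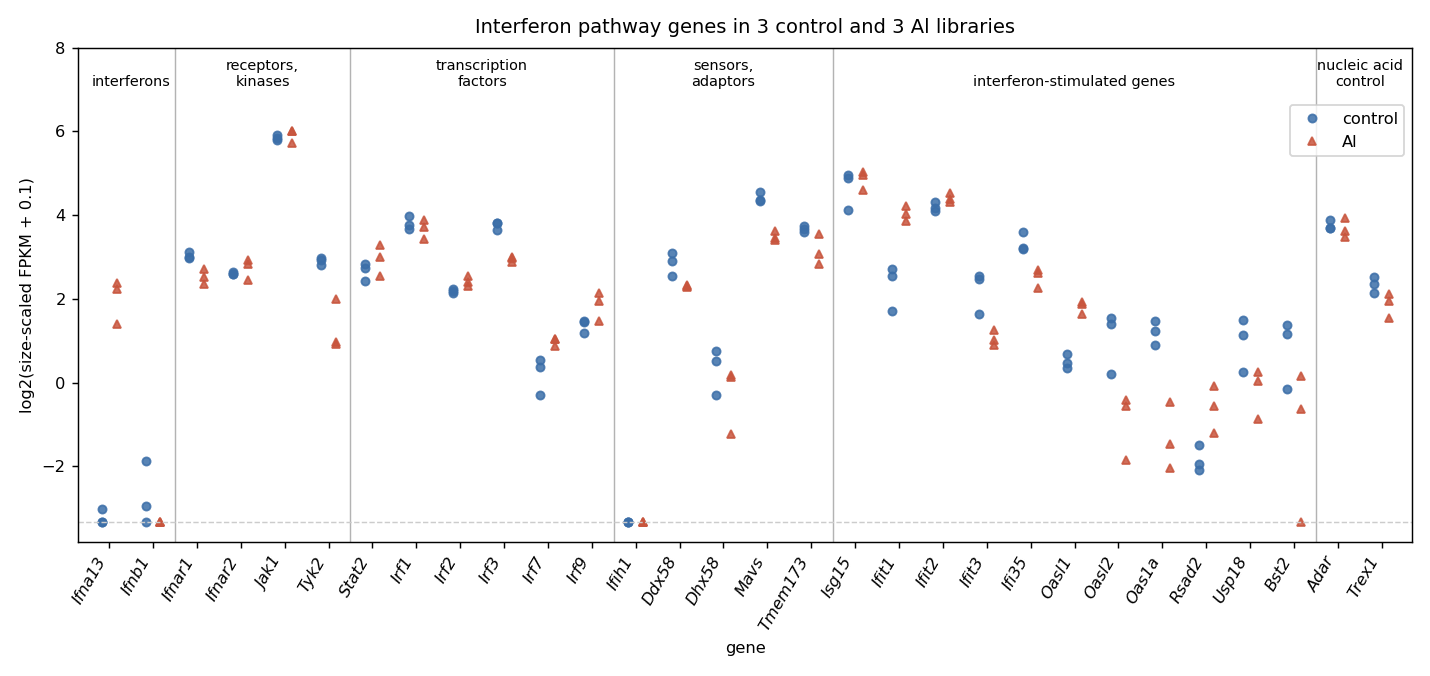
Levels of the 30 members in the table, as log2 of scaled FPKM plus 0.1 (vertical axis), by role, with 1 symbol per library; circles are the 3 control and triangles the 3 Al libraries, and the dashed line marks 0 FPKM. Ifna13 leaves the floor with Al, and genes such as Oas1a and Tyk2 lie lower with Al in every library.

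At the receptor, 1 of the 4 members fell and the other 3 were not called. Tyk2, the kinase bound to IFNAR1, was at 7.48, 6.94 and 7.82 scaled FPKM in controls and 1.78, 1.87 and 3.89 with Al. The groups were apart, and the log2 fold change was -1.61 ± 0.27 (SE), with an adjusted P from limma of 0.00093. Part of its exons overlap another annotated gene, 1700084C06Rik. Ifnar1 was at 8.60, 7.95 and 7.82 scaled FPKM in controls and 5.61, 4.99 and 6.44 with Al, a log2 fold change of -0.52 ± 0.13 (SE) with a limma adjusted P of 0.0075, which lay inside the fold threshold although the groups were apart. Without Al replicate 3 it was called lower (-0.60). The levels of Ifnar2, the signalling chain of the receptor, were 5.93 to 6.14 scaled FPKM in controls and 5.35 to 7.46 with Al. Jak1, the partner kinase and the most abundant member, was at 55.1 to 59.8 and 53.1 to 64.2. The groups overlapped in both of these genes, and their log2 fold changes of 0.12 and 0.07 became -0.66 and -0.71 under TPM, where both were called lower.

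Of the 6 transcription factors, Irf3 fell, Irf7 rose and 4 were not called. That is 16.7% in each direction, beside 26.2% of all tested genes higher and 24.4% lower. Irf3 is the constitutively made factor that starts interferon production. It was at 13.9, 13.8 and 12.3 scaled FPKM in controls and 7.80, 7.89 and 7.23 with Al, with a log2 fold change of -0.80 ± 0.10 (SE) and a limma adjusted P of 0.00025. Irf7, itself a stimulated gene that amplifies interferon alpha production, was at 1.19, 1.35 and 0.712 scaled FPKM in controls and 1.74, 1.95 and 1.94 with Al. Its log2 fold change was 0.78 ± 0.25 (SE) with a limma adjusted P of 0.022. The 2 factors thus moved apart, each without overlap between groups, but the Irf7 call was less firm. It was lost on FPKM as deposited (0.33), under TPM (0.05), with a pseudocount of 1 (0.48) and without control replicate 3 (0.52).

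The other factors, which carry the signal from the receptor to the stimulated genes or regulate them, were Stat2, Irf9, Irf1 and Irf2. Stat2 was at 5.30 to 7.06 scaled FPKM in controls and 5.78 to 9.64 with Al, and Irf9, its partner, at 2.15 to 2.69 and 2.67 to 4.29. Irf1 was at 12.6 to 15.7 and 10.7 to 14.6. These 3 overlapped between groups. Irf2, a repressor of stimulated genes, was at 4.30 to 4.57 scaled FPKM in controls and 4.88 to 5.77 with Al. Its groups did not overlap, as in 35.1% of all tested genes with higher values in Al and 33.1% with lower, but its log2 fold change of 0.24 ± 0.12 (SE) had a limma adjusted P of 0.12.

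Among the sensors and adaptors, the 4 tested members had log2 fold changes below 0 under the size factors, on FPKM as deposited, under TPM and after quantile normalization. Mavs alone was called under the size factors, where 24.4% of all tested genes were called lower. All 4 were called lower on FPKM as deposited and under TPM, beside 42.0% and 53.1% of all tested genes. Mavs, the mitochondrial adaptor of the RNA sensors, was at 20.1, 20.5 and 23.4 scaled FPKM in controls and 12.2, 10.9 and 10.5 with Al. Its log2 fold change was -0.93 ± 0.11 (SE) with a limma adjusted P of 0.00014. Ddx58 was at 8.41, 7.36 and 5.77 scaled FPKM in controls and 4.91, 4.80 and 4.83 with Al, a log2 fold change of -0.54 ± 0.15 (SE) that lay just inside the threshold, with a limma adjusted P of 0.013. Tmem173 was at 12.6, 11.97 and 13.2 in controls and 6.96, 8.30 and 11.6 with Al, also just inside it at -0.52 ± 0.17 (SE) with a limma adjusted P of 0.028. Without Al replicate 3 it was called lower (-0.71). In all 3 genes the groups were apart. Dhx58, which encodes the helicase LGP2 that modulates RNA sensing, was at 0.713 to 1.58 scaled FPKM in controls and 0.329 to 1.02 with Al, and its groups overlapped. Ifih1 had 0 reads in each library, which allows up to 3 reads in each.

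Trex1 and Adar keep self nucleic acid from being sensed, the first by degrading DNA and the second by editing double-stranded RNA. Neither was called under the size factors. Trex1 was at 4.32 to 5.62 scaled FPKM in controls and 2.82 to 4.20 with Al, without overlap, and its log2 fold change was -0.48 ± 0.18 (SE) with a limma adjusted P of 0.044. It was called lower on FPKM as deposited (-0.95), under TPM (-1.25) and, just past the threshold at -0.59, without control replicate 2 or without Al replicate 3. All of its exons lie within exons of Atrip on the same strand, so reads of the 2 genes can be mixed. Adar was at 12.7 to 14.6 scaled FPKM in controls and 11.1 to 15.1 with Al, with overlapping groups, and was called lower under TPM (-0.85).

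The stimulated genes showed the widest spread of changes, from Ifit1 at the top to Oas1a at the bottom. Of 11 tested, 3 rose, 6 fell and 2 were not called, which is 27.3% higher and 54.5% lower beside the 26.2% and 24.4% of all tested genes. To show what could bind the interferon-activated factors upstream of them, the promoters were searched for the core of the response element, GAAANNGAAA, on both strands in the 250 bases before the start, with overlapping copies allowed. RefSeq promoters on GRCm38.p6 were found for 27 of the 32 members, and entries were missing for Mx1, Mx2, Dhx58, Tmem173 and Usp18. The core was present in 8 of the 27, which is 29.6%, beside 3.46% of the 27025 gene symbols in the table and 2.98% of its 32851 promoters. The longer form GAAANNGAAACT was present in 4 of the 27 (Ifit1, Ifit3, Oas1a and Bst2) and in 0.255% of the gene symbols and 0.222% of the promoters. Of the 8, 6 are stimulated genes and the others are Stat2 and Irf2. The stretches around the element in the 6 stimulated genes are printed 5′ to 3′ on the transcribed strand, with the core or its reverse complement in capitals, because these genes split between both directions of change.
Ifit1: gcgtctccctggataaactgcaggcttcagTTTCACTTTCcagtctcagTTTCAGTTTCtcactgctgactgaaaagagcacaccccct
Rsad2: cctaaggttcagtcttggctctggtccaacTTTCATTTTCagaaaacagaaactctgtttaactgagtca
Isg15: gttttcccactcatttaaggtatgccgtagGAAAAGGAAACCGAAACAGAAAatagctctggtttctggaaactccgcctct
Ifit3: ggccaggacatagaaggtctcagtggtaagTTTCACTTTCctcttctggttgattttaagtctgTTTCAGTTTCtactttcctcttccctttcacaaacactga
Oas1a: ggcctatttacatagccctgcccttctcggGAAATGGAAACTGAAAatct
Bst2: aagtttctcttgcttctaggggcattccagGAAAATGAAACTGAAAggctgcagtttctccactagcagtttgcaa
The stretches lie at chr19:34640755-34640843 on the plus strand (Ifit1), chr12:26456533-26456602 on the minus strand (Rsad2), chr4:156200845-156200926 on the minus strand (Isg15), chr19:34583343-34583446 on the plus strand (Ifit3), chr5:120907526-120907575 on the minus strand (Oas1a) and chr8:71537557-71537632 on the minus strand (Bst2). Counted back from the start, the capitals span bases -104 to -76 in Ifit1, -120 to -111 in Rsad2, -78 to -57 in Isg15, -156 to -113 in Ifit3, -20 to -5 in Oas1a and -130 to -115 in Bst2. Ifit1 and Ifit3 carry 2 separate copies in the same orientation, while Isg15, Oas1a and Bst2 carry overlapping copies. A match in letters is a description and does not show binding. The window of Ifna13 held 0 matches.

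These 6 promoters went with changes in both directions. Ifit1, which binds foreign RNA at its 5′ end, was at 6.44, 5.74 and 3.17 scaled FPKM in controls and 16.1, 18.4 and 14.4 with Al, a log2 fold change of 1.71 ± 0.24 (SE) with a limma adjusted P of 0.00038. Rsad2, the antiviral enzyme viperin, was low throughout, at 0.158, 0.257 and 0.136 scaled FPKM in controls and 0.333, 0.846 and 0.577 with Al, with 27 to 57 reads in any library. It rose by a log2 fold change of 1.22 ± 0.37 (SE) with a limma adjusted P of 0.017, a call that was lost under TPM (0.64) and with a pseudocount of 1 (0.41). Isg15, a ubiquitin-like protein joined to other proteins, was at 29.5, 31.1 and 17.4 scaled FPKM in controls and 30.8, 32.7 and 24.2 with Al, with overlapping groups and a limma adjusted P of 0.44, and was called lower under TPM (-0.58).

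The other 3 promoters belong to genes that fell. Ifit3, a partner of Ifit1 in the same complex, was at 5.45, 5.71 and 3.03 scaled FPKM in controls and 2.30, 1.75 and 1.91 with Al, a log2 fold change of -1.17 ± 0.25 (SE) with a limma adjusted P of 0.0033. Oas1a, which makes the messenger that activates RNase L, was at 2.24, 2.67 and 1.75 in controls and 0.623, 0.144 and 0.260 with Al. Its log2 fold change of -2.52 ± 0.39 (SE) was the lowest of all members, with a limma adjusted P of 0.00059, and it rests on 5 to 26 reads in the Al libraries. Bst2, the tether that holds budding virus at the membrane, was at 2.13, 2.50 and 0.795 scaled FPKM in controls and 0.547, 1.02 and 0 with Al, so that its groups overlapped. It passed the unadjusted threshold at -2.05 ± 0.82 (SE) but had a limma adjusted P of 0.054. Without Al replicate 3, where it had 0 reads, its log2 fold change was -1.02 and the call was lost. Without control replicate 1 or 2 the call was lost as well. Close copies make some of these values uncertain, since 31.7% of the 100-base stretches of Ifit3 occur in Ifit3b and 40.9% of those of Oas1a in Oas1g, against 3.29% of those of Ifit1 in Ifit1bl2.

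Stimulated genes without a core match in the window also went both ways. Oasl1 and Oasl2 are related 2-5A synthetase-like genes, and they moved in opposite directions. Oasl1, which restrains translation of Irf7, was at 1.28, 1.50 and 1.16 scaled FPKM in controls and 3.01, 3.72 and 3.54 with Al, a log2 fold change of 1.32 ± 0.17 (SE) with a limma adjusted P of 0.00025. Oasl2 was at 2.79, 2.55 and 1.04 scaled FPKM in controls and 0.179, 0.573 and 0.648 with Al, a log2 fold change of -1.99 ± 0.47 (SE) with a limma adjusted P of 0.0055. They share 0 stretches of 50 bases with each other or any other transcript. The rise of Oasl1 was not called under TPM (0.57), while the fall of Oasl2 was called under all 19 alternatives.

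Ifi35 is a cytoplasmic protein known to bind NMI, a further interferon-induced protein. It was at 9.21, 11.99 and 9.09 scaled FPKM in controls and 6.01, 4.71 and 6.35 with Al, a log2 fold change of -0.82 ± 0.16 (SE) with a limma adjusted P of 0.0022. Usp18 removes Isg15 from proteins and blocks IFNAR2 signalling, and RefSeq gave no promoter for it here. It was at 2.70, 2.09 and 1.09 scaled FPKM in controls and 1.08, 0.444 and 0.917 with Al, so that control replicate 3 nearly met Al replicate 1. Its log2 fold change was -1.16 ± 0.39 (SE) with a limma adjusted P of 0.027, and the call was lost with voom on recovered reads, without control replicate 1 and without Al replicate 2. Ifit2 was at 17.1 to 19.6 scaled FPKM in controls and 19.8 to 23.0 with Al. Its groups were apart, but the log2 fold change was 0.22 ± 0.10 (SE) with a limma adjusted P of 0.091.

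**Figure D3:**
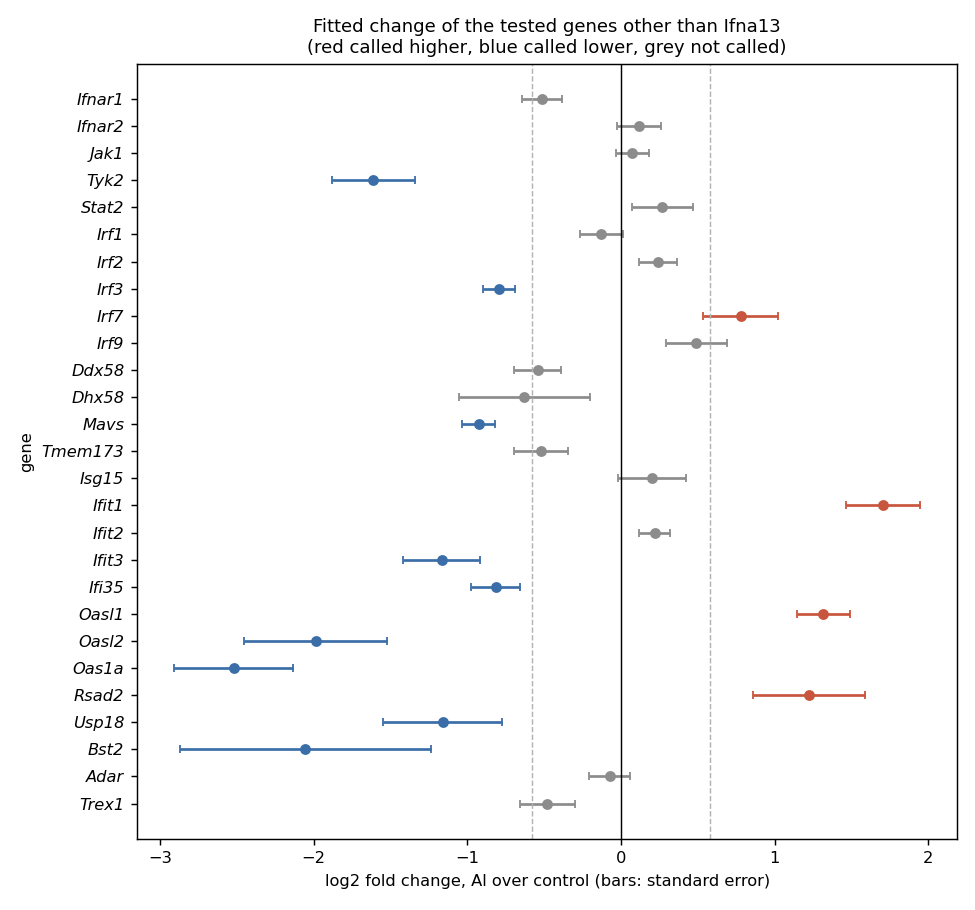
Fitted log2 fold change of Al over control (horizontal axis) with its standard error for the 27 tested members other than Ifna13, in order of role; red was called higher, blue called lower and grey not called, with dashed lines at the fold threshold of 0.58. Values run from -2.52 for Oas1a to 1.71 for Ifit1, and 4 are red and 9 blue.

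The 3 control libraries differed among themselves in the stimulated genes, a measurement that does not involve the Al libraries. Control replicate 3 was the lowest control in 11 of the 11 tested stimulated members, whereas it was the lowest in 38.1% of all tested genes. The median difference of control replicate 3 from the mean of the other 2 was -0.80 on the log2 scale for these 11 genes and -0.01 for all tested genes. It was -1.43 for Bst2, -1.28 for Oasl2, -1.06 for Usp18 and -0.92 for Ifit1, and -0.13 for Ifit2. Outside the stimulated genes, Dhx58 (-0.93) and Irf7 (-0.75), which interferon also induces, stood apart in the same way, while Mavs (0.21) and Tyk2 (0.12) were higher in control replicate 3. Of the 33 tested stimulated genes of a wider interferon list, control replicate 3 was lowest in 78.8%, with a median of -0.39. Among the 16 other tested members it was lowest in 11, which is 68.8%, with a median of -0.09. Of the 27 cell type markers above 0 in a control, 13 were lowest in control replicate 3 alone, 6 in replicate 2, 5 in replicate 1 and 3 in more than 1 replicate. Among them, Slc1a3 was at 22.8, 20.1 and 13.8 FPKM and Col1a1 at 1207, 1019 and 743 FPKM in control replicates 1, 2 and 3, and Dcn and Pdgfra followed the same order, while Tubb3 was at 5.11, 5.32 and 5.54 FPKM and Cd68 at 1.24, 1.68 and 1.48 FPKM. With 1 library set against 2 this has no test, and the part of these markers in it was not tested.

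**Figure D4:**
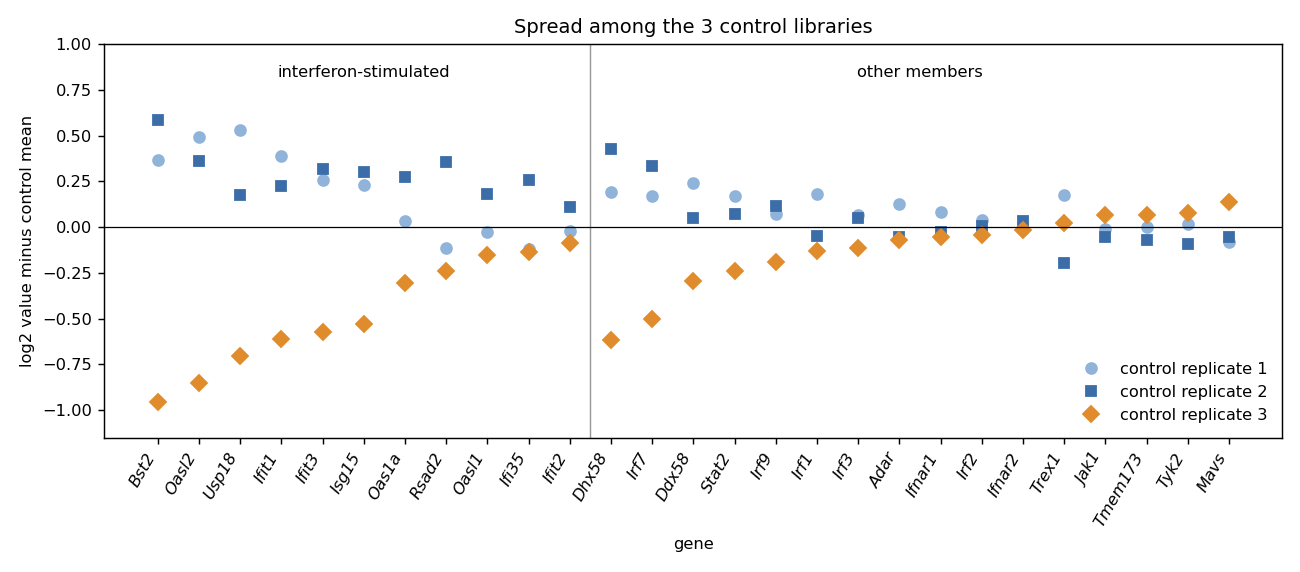
Each control library's log2 value minus the mean of the 3 controls (vertical axis) for the 27 tested members other than Ifna13; circles, squares and diamonds are control replicates 1, 2 and 3. The diamonds are lowest in all 11 stimulated genes at the left and reach -0.95 in Bst2.

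No library of the Al group stood apart in this way, since the lowest Al library among the 11 genes was replicate 1 in 3, replicate 2 in 4 and replicate 3 in 4. Without control replicate 3, 3 of the 27 members were higher and 10 lower, beside 25.1% and 24.5% of all genes tested in that fit, and Ddx58 was then called lower (-0.70). In that fit the log2 fold change of Ifit1 was 1.39, of Oasl1 1.23 and of Rsad2 1.09, and that of Oasl2 was -2.41.

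A wider list of 68 further genes of the interferon system, of which 57 were tested, gave 8 higher and 26 lower, which is 14.0% and 45.6% beside the 26.2% and 24.4% of all tested genes, with a median log2 fold change of -0.53. On FPKM as deposited the split was 3 higher and 33 lower, beside 1805 and 5417 of all 12889 tested genes, and under TPM 1 higher and 40 lower, beside 1200 and 6843. Within it, 33 stimulated genes were tested, of which 3 rose and 18 fell, with a median of -0.83. The 11 sensors and adaptors gave 4 higher and 2 lower.

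Among the called genes with a mean of at least 1 FPKM, the 3 largest rises were Cxcl10, Mb21d1 and Traf6. Cxcl10, a chemokine that both interferon and inflammatory signals induce, was at 3.75, 2.70 and 2.19 scaled FPKM in controls and 11.2, 15.6 and 11.3 with Al, a log2 fold change of 2.12 ± 0.21 (SE) with a limma adjusted P of 5.9e-05. Mb21d1, which encodes the DNA sensor cGAS, was at 4.73, 4.99 and 4.55 in controls and 9.69, 10.1 and 11.9 with Al. Traf6, a ubiquitin ligase of Toll-like receptor signalling, was at 5.23, 4.71 and 5.11 in controls and 10.6, 10.4 and 11.1 with Al. Each of the 3 was higher in all Al libraries than in any control. Picking the largest rises favours such a separation, which 35.1% of all tested genes also showed. Under TPM Cxcl10 was still called (1.35), while the calls of Mb21d1 (0.35) and Traf6 (0.31) were lost.

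The 3 largest falls were Nmi, Il10rb and Trim30a. Nmi, the binding partner of Ifi35, was at 1.81, 2.62 and 1.83 scaled FPKM in controls and 0.498, 0.532 and 0.511 with Al, a log2 fold change of -1.81 ± 0.22 (SE) with a limma adjusted P of 0.00016. Il10rb, a receptor chain shared by interleukin-10 and interferon lambda, was at 5.84, 6.58 and 6.99 in controls and 1.70, 1.88 and 3.02 with Al. Trim30a, an interferon-induced ubiquitin ligase, was at 9.53, 9.33 and 6.55 in controls and 3.44, 2.84 and 2.62 with Al. In these 3 genes every Al library was below every control. Picking the largest falls favours such a separation, which 33.1% of all tested genes also showed. Nmi had only 16 to 18 reads in each Al library.

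The calls that held through each of the 19 alternatives tried were 4 of the 13 outside Ifna13, namely Ifit1 as a rise and Tyk2, Oasl2 and Oas1a as falls. Irf3, Mavs, Ifit3 and Ifi35 were lost only when the fold threshold was raised to 1.5 on the log2 scale, which also ended the calls of Irf7, Oasl1, Rsad2 and Usp18. Of the 27 tested members without Ifna13, 11 had a log2 fold change above 0 under the size factors, 5 on FPKM as deposited, 4 under TPM and 9 after quantile normalization. The 4 above 0 under TPM were Irf7, Ifit1, Oasl1 and Rsad2.

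**Figure D5:**
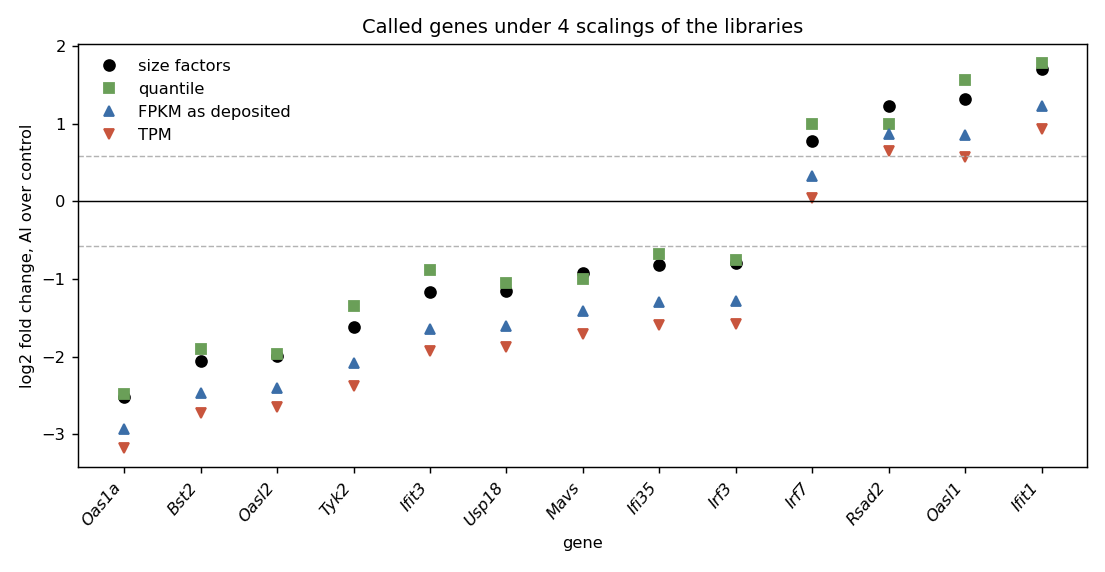
Log2 fold change of Al over control (vertical axis) of the 13 called members other than Ifna13 under 4 scalings of the libraries, with dashed lines at the fold threshold of 0.58. The falls deepen and the rises shrink on FPKM as deposited and under TPM, and Irf7 comes to 0.05 under TPM.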

How the data were processed

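HT22 cells were sequenced as 3 control and 3 Al input libraries, which the study gives as biological replicates. The authors deposited 1 FPKM value per gene symbol and library. The paper's methods name Trimmomatic, SortMeRNA and HISAT2 on GRCm38/mm10, while the submitters' processing notes list fastp, HISAT2, HTSeq and GRCm39. For Ifna13 and Ifnb1 the gene length implied by the values equals the GRCm38 span, which does not settle the build because a span can be the same in both, and coordinates are given on GRCm38.

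Whole reads and library totals were recovered from the steps of the FPKM values for 17687 of 17688 genes above 0. FPKM was divided by size factors, medians of ratios over 10337 genes that had reads in every library and averaged at least 1 FPKM. Log2 of the result plus a pseudocount of 0.1 was fitted with limma 3.58.1 (lmFit, eBayes with trend) in R 4.3.3 over the 12889 genes with a mean of at least 0.1 FPKM. Fold changes are on this scale, which understates changes of low genes. Calls needed an absolute log2 fold change over 0.58 and an unadjusted P under 0.05, as in the study's methods. The study called genes with DESeq2, which was not run here, and voom was used on the recovered reads. The script was tested on simulated data.

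The members, the wider list and the markers were chosen with earlier results of these data known. All members were named, with the 3 largest rises and falls of the wider list and each gene above 0 of a list of chromosome 4 neighbours, and the Gm genes of the cluster were added after their values were seen. Shared sequence was counted on GENCODE transcripts of GRCm38, and promoters came from RefSeq on GRCm38.p6. Of 27 members with a promoter, 24 read into their own transcript on the same strand, including all 6 printed. A count of 0 allows 3 reads. Alternatives covered scaling, pseudocount, filter, trend, replicate block, thresholds, voom on recovered reads, thinning and each library left out. Tables were handled with Python 3.11.15 and pandas 2.3.3.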

Additional observations from a re-analysis of the deposited data

How the results depend on the processing

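Counts and medians of the members leave out Ifna13. On FPKM as deposited, 15 members were lower with a median log2 fold change of -0.95, and 3 genes of the wider list were higher. Under TPM, 1 member was higher and 19 lower with a median of -1.25, 1 gene of the wider list was higher and 40 were lower, and 7 of the 11 members above 0 came below it, of which Ifnar2 (-0.66), Jak1 (-0.71) and Isg15 (-0.58), uncalled before, were then called lower. On FPKM as deposited and under TPM, the median gene was shifted by -0.46 and -0.75 on the log2 scale relative to the size factors. The size factors set that gene near no change by their construction, and the cause of the shifts was not tested. Quantile normalization gave a median of -0.33. A pseudocount of 1 left 2 members higher with a median of -0.31 and 15 genes of the wider list lower, beside 21.1% of all tested genes higher and 18.7% lower. A fold threshold of 1.5 left 1 member higher and 4 lower, and 1 higher and 3 lower in the wider list, beside 7.67% and 5.76% of all tested genes, because it is stricter. Leaving out each library in turn gave 3 to 5 members higher, 7 to 11 lower and a median of -0.53 to -0.17. In the wider list 6 to 9 genes were then higher and 21 to 28 lower. Of all genes tested in those fits, 24.8% to 27.1% were higher and 23.0% to 25.7% lower. Same-numbered libraries did not deviate together (correlations of -0.08, -0.06 and -0.11 over 10349 genes). With 3 libraries per group this cannot show whether the numbers pair them. A replicate block gave 4 members higher and 9 lower, beside 26.0% and 24.2% of all tested genes. Of 645 values of single genes under alternatives, 588 kept their call or stayed uncalled, 30 lost a call, 20 gained one in their direction, 3 gained one with a change of sign (the genes named under TPM), and 4 were values of Ifna13 that differed in size. Members under about 50 reads in an Al library (Ifna13, Ifnb1, Ifih1, Dhx58, Oasl2, Oas1a, Rsad2, Usp18 and Bst2) are limited by depth.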

Other observations

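Between Klhl9 and Ifna7 the interferon cluster of chromosome 4 holds 14 predicted genes with Gm names in the table. Of these, 11 were above 0 in at least 1 library and 3 were at 0 in all 6. They did not follow Ifna13, with 299 reads in the controls and 107 in the Al libraries, which is 2.37 and 1.54 CPM. Gm13272 had 14, 10 and 15 reads in controls and 1 in each Al library, with a log2 fold change of -1.36 ± 0.33 (SE) under the size factors. Gm13283 had the most, with 28, 49 and 38 reads in controls and 29, 16 and 14 with Al. Its log2 fold change under the size factors was 0.32 ± 0.27 (SE), with overlapping groups.

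Over the 12247 tested genes with a coding transcript, the log2 fold change had a Spearman correlation across genes of 0.027 with GC content and -0.144 with transcript length, given as a description because genes are not independent. The median log2 fold change of the 5 equal GC classes lay between -0.03 and 0.08, and Ifna13, with a GC content of 47.0%, was in the second lowest of them.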
